A study of Bos taurus with 41 samples.

Results

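PNLDC1 (ENSBTAG00000015166) encodes an RNA exonuclease of the piRNA pathway, and its transcripts were followed here through bovine conceptus tissue on Day 16 of gestation. It is 1 of 16149 genes in the conceptus count table. It was chosen by its measured values, because its transcripts were less abundant in in vitro produced (IVP) than in in vivo derived (IVD) tissue in both cultures, so that difference is described below and is not tested.

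PIWI-interacting RNAs (piRNAs) are small RNAs that guide PIWI proteins to transposon transcripts, and in the mouse testis this keeps transposons silent. A piRNA precursor is cut by PLD6 at the mitochondrial surface, loaded onto a PIWI protein, and shortened at its 3′ end. In mouse, PNLDC1 is the nuclease that does this trimming, held at the mitochondrion by TDRKH, and HENMT1 then methylates the trimmed end. PNLDC1 belongs to the same nuclease family as the poly(A) ribonuclease PARN. The libraries were made from poly(A) RNA, so they measured the transcripts of these enzymes and not piRNAs.

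The study asked how endometrium and conceptus affect each other when the embryo was produced in vitro. IVD conceptuses came from Angus-Holstein heifers bred by artificial insemination. IVP conceptuses came from oocytes of abattoir ovaries fertilized with sperm of the same bull, and a pair of blastocysts was transferred to each recipient heifer. Conceptus sections were held for 12 h in RPMI medium alone (mono-culture) or on an explant of Day 16 cyclic heifer endometrium (co-culture). IVD and IVP conceptuses therefore also differed in oocyte source and embryo transfer, and these cannot be told apart. This gave 29 conceptus libraries, 13 of them from mono-culture (8 IVD and 5 IVP) and 16 from co-culture (9 IVD and 7 IVP). They came from 13 conceptuses, 8 IVD and 5 IVP, of which 7 IVD and 4 IVP were sequenced from both cultures. Conceptuses 62a and 62b shared a recipient. Conceptuses 23, 24, 26, 47 and 62b each gave 2 co-culture sections, so sections were not independent. The labels give 1 batch date for all conceptus libraries. A further 12 libraries held endometrial explants from wells with IVP conceptus.

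Conceptus libraries held 58583647 to 104436922 counted reads, and PNLDC1 received 74 to 1552 of them, for a counting error of 2.54% to 11.6% of its value. Values are given in CPM, which is the count relative to the library total, with TMM scaling between libraries. The tissue label was checked against marker genes. All 15 trophoblast markers were measured, and their summed level was lowest at 5799 CPM in an IVD mono-culture library. In mono-culture its median was 26622 CPM for IVD and 31842 for IVP tissue, and in co-culture 36248 for IVD and 71089 for IVP tissue. Of 15 hypoblast markers, 14 were measured, with medians of 7558, 6058, 8565 and 9831 CPM in that order. Of 15 epiblast and mesoderm markers, 10 were tested, and SOX2, FGF4, UTF1 and TBXT had no row in the table. Their summed level had a lower median in IVP tissue in both cultures, 171 CPM for IVD (96.4 to 402) and 105 for IVP (75.6 to 258) in mono-culture, and 183 for IVD (138 to 323) and 149 for IVP (82.6 to 265) in co-culture, with overlapping ranges. Of 15 endometrial markers, 7 were measured, and ESR1, OXTR, SERPINA14, UTMP, HOXA10, HOXA11, DGAT2 and PTPRC had no row. The summed level of the 7 had a higher median in co-culture in both types, with overlapping ranges. For IVD tissue it was 99.1 CPM in mono-culture (27.6 to 133) and 143 in co-culture (59.7 to 322). For IVP tissue it was 101 CPM in mono-culture (81.1 to 165) and 125 in co-culture (78.7 to 251). The part of these tissue shares in the PNLDC1 values was not tested. In bulk tissue, fewer cells of a type and less RNA per cell cannot be told apart.

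PNLDC1 transcripts were measured in every conceptus library. In the 8 IVD mono-culture libraries the level was 3.13 CPM at its lowest, 5.24 at the median and 7.89 at its highest (mean 5.47 ± 1.77, SD, n = 8). Conceptuses 26 (3.13 CPM) and 8 (3.27 CPM) were lowest in that group, and conceptuses 50 (7.35 CPM) and 22 (7.89 CPM) were highest. The 5 IVP mono-culture libraries were at 1.10 CPM in conceptus 62a, 1.46 in 24, 1.92 in 62b, 3.16 in 23 and 4.20 in 37 (mean 2.37 ± 1.29, SD, n = 5). The groups overlapped, since the IVP conceptus 37 lay above the IVD conceptuses 26 and 8, and the IVP conceptus 23 lay above conceptus 26.

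In co-culture the groups were farther apart. The 9 IVD libraries ran from 3.99 CPM through a median of 6.33 to 20.1 (mean 7.88 ± 5.05, SD, n = 9), and conceptus 50 was the highest, ahead of conceptus 66 at 10.4 CPM. The 7 IVP libraries ran from 0.966 CPM through a median of 1.56 to 2.78 (mean 1.69 ± 0.594, SD, n = 7). The highest IVP library, conceptus 23 at 2.78 CPM, lay below the lowest IVD library, conceptus 26 at 3.99 CPM. Of the 15942 genes tested, 2 (0.0125%) had every IVP co-culture library below every IVD co-culture library, and nothing is read from this because that contrast chose the gene. The corresponding share in mono-culture was 0.0815%, to which PNLDC1 did not belong. Conceptus 37, which had the highest IVP level in mono-culture, had no co-culture library.

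**Figure D1:**
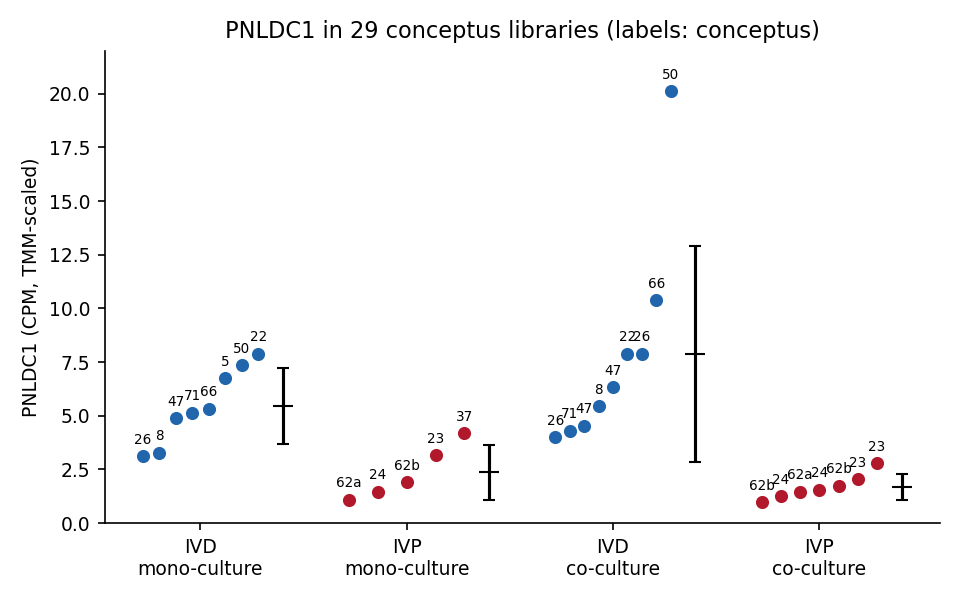
PNLDC1 level (CPM, linear axis from 0) in each of the 29 conceptus libraries by group, with the conceptus named above each point and the group mean ± SD as a bar. IVP co-culture sections lie between 0.966 and 2.78 CPM, all below the lowest IVD co-culture section at 3.99 CPM, and the mono-culture groups overlap.

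As a log2 fold change from the edgeR fit over all 4 groups, PNLDC1 was lower in IVP than in IVD tissue by 2.31-fold in mono-culture (-1.21, SE 0.38) and by 4.67-fold in co-culture (-2.22, SE 0.35). Both values describe the contrast that chose the gene, and no p-value is given. Without IVD co-culture replicate 5 (conceptus 50) the co-culture value was -1.91, and with each library or conceptus left out in turn it ran from -2.51 to -1.91. In mono-culture the corresponding range was -1.52 to -1.01. Over all genes, the edgeR test at an FDR of 0.05 called 0% in either direction in mono-culture. In co-culture it called 0.0188% higher and 0.00627% lower in IVP tissue, and nothing is read from these shares for PNLDC1.

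Each conceptus was then taken as a single unit. Its value was the log2 mean of its mono-culture level and the mean of its co-culture sections. Conceptuses 37 and 5 had a mono-culture level alone. IVP conceptuses were at 1.28 CPM (62a), 1.44 (24), 1.59 (62b), 2.76 (23) and 4.21 (37). IVD conceptuses were at 4.20 CPM (26), 4.23 (8), 4.71 (71), 5.13 (47), 6.76 (5), 7.46 (66), 7.91 (22) and 12.2 (50). In this order of 13 conceptuses, the IVP conceptus 37 and the IVD conceptuses 26 and 8 were neighbours between 4.20 and 4.23 CPM, and every other IVP conceptus was below every IVD conceptus. The share of genes with every IVP conceptus below every IVD conceptus was 0.125%, and PNLDC1 was not among them. For PNLDC1 the lowest IVD minus the highest IVP conceptus was -0.00276 on the log2 scale. Its place among those genes therefore depends on how libraries are averaged, and nothing is read from it. The SD of the conceptus means on the log2 scale was 0.54 in IVD and 0.73 in IVP. Sections of the same conceptus also differed: the 5 conceptuses with 2 co-culture sections had a median difference of 0.48 on the log2 scale (0.31 to 0.98). Every gap between neighbours in the order was smaller than the widest of these differences between sections.

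The comparison of co-culture with mono-culture was not used to choose the gene and was tested. In IVD tissue PNLDC1 was 0.53 higher in co-culture on the log2 scale (SE 0.31, 95% confidence interval -0.11 to 1.17), which did not pass in edgeR's quasi-likelihood test (adjusted p = 0.319). In IVP tissue it was -0.49 (SE 0.37, 95% confidence interval -1.26 to 0.28), which did not pass either (adjusted p = 0.513). The edgeR average over both types was 0.02 (SE 0.25, 95% confidence interval -0.49 to 0.52, adjusted p = 0.968). The IVD and IVP intervals each hold both no difference and a difference of more than 1 log2 unit. Among all genes tested, 3.11% were called higher and 3.22% lower in IVD co-culture. In IVP tissue 0% were called in either direction by edgeR, where 2914 genes had an unadjusted p under 0.05 and DESeq2 called 321. The IVP change minus the IVD change of PNLDC1 was -1.02 (SE 0.49). It equals the IVP minus IVD difference in co-culture less that in mono-culture, and those differences chose the gene. It is therefore given without an interval or a test. Its SE also treats sections of a conceptus as independent.

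The IVD value rested in part on conceptus 50: without IVD co-culture replicate 5 it was 0.23 (adjusted p = 0.641 in edgeR). The IVP value was -0.18 in the fit blocked by conceptus (adjusted p = 0.750 in edgeR), -0.18 without the mono-culture library of conceptus 37, -0.86 with library totals as the only scaling and -0.01 with the TMM factor as a covariate.

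Within conceptuses, the change from mono-culture to co-culture had no single direction. Among 7 IVD conceptuses the log2 difference was 1.45 in conceptus 50, 0.96 in 66, 0.84 in 26, 0.73 in 8, 0.13 in 47, 0.00058 in 22 and -0.26 in 71. The mean was 0.55 ± 0.61 (SD, n = 7), with 6 of 7 higher in co-culture (exact two-sided sign-flip permutation p = 0.0781, 0.259 adjusted over 5 tests, smallest possible 0.0156). Among 4 IVP conceptuses it was 0.40 in 62a, -0.06 in 24, -0.40 in 23 and -0.56 in 62b. The mean was -0.16 ± 0.43 (SD, n = 4), with 1 of 4 higher (exact permutation p = 0.500, adjusted 0.500), and 4 conceptuses cannot go below 0.125. Over all 11 conceptuses the mean was 0.29 ± 0.64 (SD), with 7 of 11 higher (exact permutation p = 0.155, adjusted 0.259). With conceptus 71 left out, the only IVD conceptus with a negative difference, the IVD mean was 0.69 (exact permutation p = 0.0312, the smallest that 6 conceptuses allow). That p was fixed once the only negative difference was dropped, and nothing is read from it. With each other IVD conceptus left out, the exact permutation p ran from 0.0938 to 0.156.

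**Figure D2:**
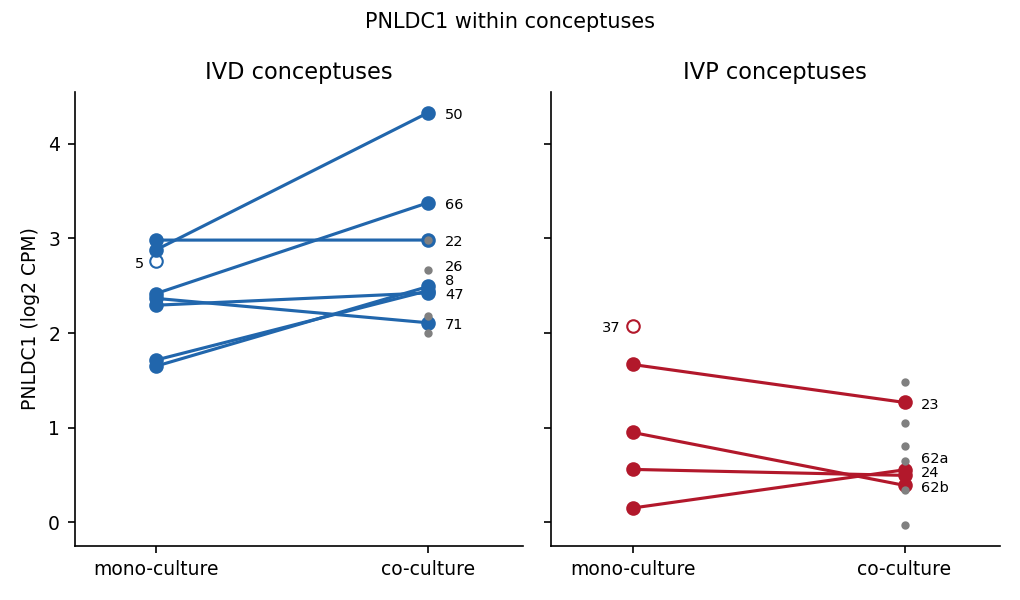
PNLDC1 (log2 CPM) of each conceptus in mono-culture and co-culture, IVD on the left and IVP on the right. Lines join the mono-culture value and the mean of the co-culture sections, small grey points are the sections of conceptuses with 2, and open circles are conceptuses with no co-culture library. Of the IVD lines 6 of 7 go up, that of conceptus 22 by only 0.00058, and of the IVP lines 1 of 4.

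Across the 7 IVD conceptuses, a higher level in mono-culture went with a higher level in co-culture only loosely. Pearson's r was 0.607 (exact permutation p = 0.153, adjusted 0.259) and Spearman's rho was 0.536 (exact permutation p = 0.236, adjusted 0.295). Without the 2 conceptuses farthest from the median in mono-culture (26 and 8), r was 0.618. Conceptuses 23, 24 and 26 had sections on endometrium of both uterus 14 and uterus 39, and with TMM scaling each was higher on uterus 39. These were 2.05 and 2.78 CPM in conceptus 23, 1.25 and 1.56 CPM in conceptus 24, and 3.99 and 7.90 CPM in conceptus 26. The other repeated sections were 6.33 CPM on uterus 19 and 4.53 CPM on uterus 54 in conceptus 47, and 1.74 CPM on uterus 69 and 0.966 CPM on uterus 70 in conceptus 62b. No test was made of the uterus, since 3 conceptuses shared the first pair.

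None of the measured genes listed for the piRNA pathway passed the test between IVP and IVD tissue, and almost no gene of any kind did. Of 31 listed piRNA pathway genes, 22 were tested, and 11 of these had a mean under 1 CPM in every group. PIWIL3 and PIWIL4 had no row in the conceptus table. Of the 22, edgeR called 0 in IVP against IVD tissue in mono-culture (1 at an unadjusted p under 0.05, 0 by DESeq2) and 0 in co-culture (2 at an unadjusted p under 0.05, 0 by DESeq2). Their median log2 fold change was -0.02 in mono-culture and -0.16 in co-culture, against -0.02 and -0.06 over all genes tested. Of the 22, 12 had a negative value in mono-culture and 15 in co-culture, and 9 were negative in both at once. Among the 15942 genes tested, 8590 were negative in mono-culture and 8911 in co-culture. Over all 15942 genes tested, edgeR called 0% in mono-culture, and 0.0188% higher and 0.00627% lower in co-culture. At an unadjusted p under 0.05 in edgeR were 331 genes in mono-culture and 2170 in co-culture. With so few calls over all genes, 0 of 22 says nothing particular about the listed genes. The same holds for IVP against IVD tissue in the other lists below.

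Among the PIWI proteins that carry piRNAs, PIWIL2 was in mono-culture between 0.166 and 2.98 CPM (median 0.559, n = 8) in IVD and between 0.206 and 0.549 CPM (median 0.293, n = 5) in IVP tissue. Its log2 fold change was -1.76 (SE 0.97) in mono-culture and -1.22 (SE 0.83) in co-culture, with adjusted p of 1.00 and 0.530 in edgeR. The IVD mono-culture sections of conceptuses 5 (2.98 CPM), 50 (2.96 CPM) and 22 (1.85 CPM) were high, and the other 5, up to 0.560 CPM, overlapped the IVP libraries. PIWIL1 was at or below 0.18 CPM in the mean of every group.

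Of the proteins that process the precursor, PLD6, the endonuclease that cuts it, was at 38.6 ± 16.7 CPM (SD, n = 8) in IVD and 28.3 ± 3.87 CPM (SD, n = 5) in IVP mono-culture, and at 44.4 ± 24.8 (SD, n = 9) and 40.5 ± 21.2 CPM (SD, n = 7) in co-culture. TDRKH, the mitochondrial partner of PNLDC1, had group means of 0.28 to 0.68 CPM and log2 fold changes of 0.26 (SE 0.89) in mono-culture and -0.23 (SE 0.80) in co-culture. HENMT1, which acts after trimming, was at 4.55 ± 4.25 CPM (SD, n = 8) in IVD and 2.26 ± 1.50 CPM (SD, n = 5) in IVP mono-culture (log2 fold change -1.01, SE 0.61) and at 3.76 ± 2.06 (SD, n = 9) and 2.63 ± 1.66 CPM (SD, n = 7) in co-culture (-0.51, SE 0.53). None of these differences passed in edgeR. TDRD1, a Tudor protein that binds PIWI proteins in mouse, had the lowest correlation of the 22 with PNLDC1 (Pearson r = -0.65 over 29 libraries) and a positive log2 fold change in both cultures, 1.47 (SE 0.68) and 1.41 (SE 0.61), neither past the threshold. The correlation was highest for PIWIL2 (r = 0.60).

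**Figure D3:**
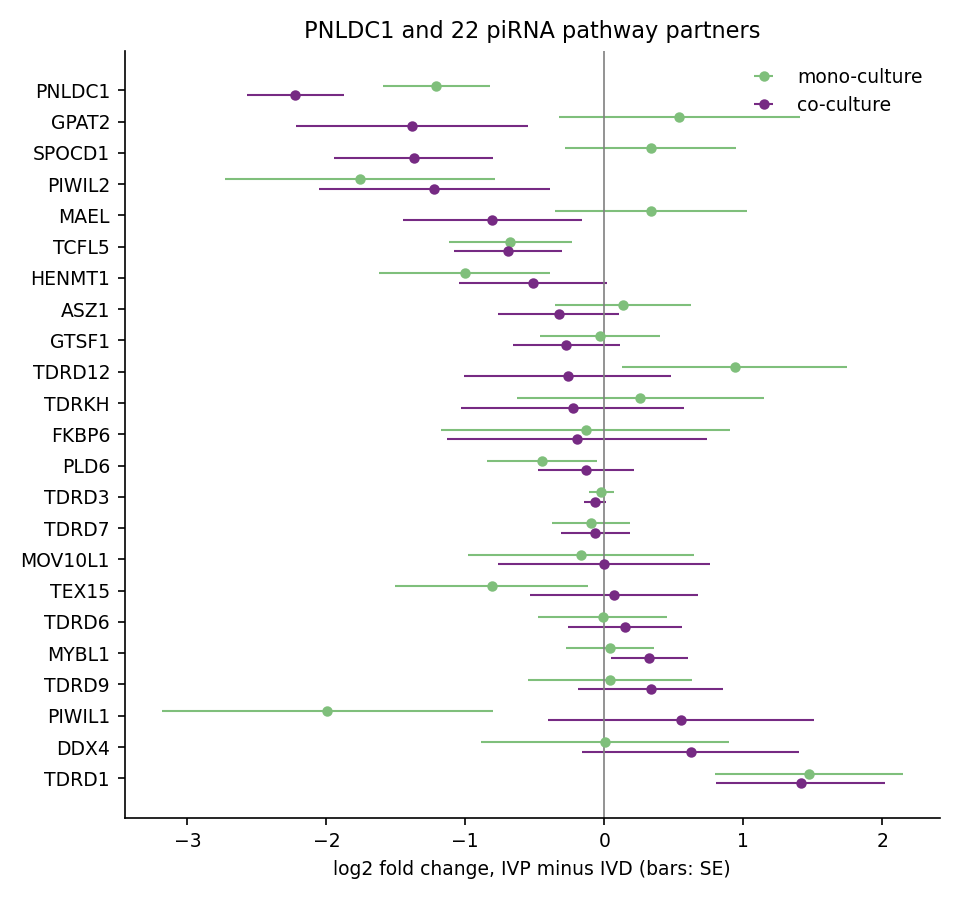
Log2 fold change (IVP minus IVD, bars are SE) of PNLDC1 and 22 piRNA pathway genes in mono-culture (green) and co-culture (purple), ordered by the co-culture value below PNLDC1. PNLDC1 lies at -1.21 and -2.22, a contrast that chose it, and the other genes run from -1.99 to 1.47 in mono-culture and from -1.38 to 1.41 in co-culture with wide errors.

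Between cultures, 1 of the 22 listed genes passed in edgeR, TDRD3, a Tudor protein that binds methylated arginine. These data do not show whether it acts with PNLDC1. In the average of both types it fell by 0.23 on the log2 scale (SE 0.06, adjusted p = 0.00850 in edgeR). There 9.16% of all genes were called higher and 9.69% lower. In IVD tissue edgeR called 0 of the 22 (2 at an unadjusted p under 0.05, 1 by DESeq2). In IVP tissue it also called 0 (2 at an unadjusted p under 0.05, 1 by DESeq2).

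The nucleases related to PNLDC1 by activity were deadenylases and other RNA 3′ exonucleases, and all 23 listed genes were tested. PARN, the nearest relative, had means of 111 ± 45.3 CPM (SD, n = 8) in IVD and 106 ± 28.7 CPM (SD, n = 5) in IVP mono-culture, and of 97.9 ± 46.7 CPM (SD, n = 9) and 97.6 ± 45.7 CPM (SD, n = 7) in co-culture. Its IVP minus IVD log2 fold change was -0.06 (SE 0.31) in mono-culture and -0.00 (SE 0.28) in co-culture. TOE1, a nuclear 3′ exonuclease that trims small nuclear RNAs, was at -0.27 (SE 0.21) and -0.41 (SE 0.19). EdgeR called 0 of the 23 between IVP and IVD tissue in mono-culture (0 at an unadjusted p under 0.05, 0 by DESeq2) and 0 in co-culture (3 at an unadjusted p under 0.05, 0 by DESeq2). With co-culture, PDE12, a mitochondrial deadenylase, fell by 1.13 on the log2 scale in IVD tissue (SE 0.17, adjusted p = 0.00195 in edgeR), from 16.8 ± 3.39 CPM (SD, n = 8) to 7.70 ± 1.26 CPM (SD, n = 9). PDE12 was the only 1 of the 23 called in IVD tissue, where 3.22% of all genes were called lower. In the average of both types PDE12 and the CCR4-NOT subunits CNOT2 (-0.22, SE 0.06) and CNOT6 (-0.47, SE 0.17) were called lower. These were 3 of 23, where 9.69% of all genes were called lower, and nothing is read from the count. Of them, PDE12 alone passed in the edgeR fit blocked by conceptus (adjusted p = 0.00919, against 0.0584 for CNOT2 and 0.0692 for CNOT6).

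In mouse, many piRNA pathway and other germline genes are kept silent in somatic tissue by promoter DNA methylation and by repressors such as E2F6. All 28 listed methylation factors and repressors were tested, and edgeR called 0 of them between IVP and IVD tissue in mono-culture (1 at an unadjusted p under 0.05, 0 by DESeq2) and 0 in co-culture (5 at an unadjusted p under 0.05, 0 by DESeq2). Of the DNA methyltransferases, DNMT3A was at -0.12 (SE 0.16) and -0.20 (SE 0.14), and DNMT3B at -0.42 (SE 0.30) and -0.32 (SE 0.26). DNMT3L, a cofactor of DNMT3A in mouse germ cells, was at -1.03 (SE 0.87) and -2.19 (SE 0.72), with adjusted p of 1.00 and 0.216 in edgeR, at group means of 0.03 to 0.63 CPM. Between cultures, 2 of 28 were called higher and 4 lower in IVD tissue, where 3.11% and 3.22% of all genes were called, and 7 higher and 9 lower in the average of both types, where 9.16% and 9.69% were called. In IVD tissue the histone methyltransferase EHMT1 (-0.51, SE 0.14), the 5-methylcytosine dioxygenase TET1 (-0.73, SE 0.20) and E2F6 (-0.59, SE 0.16) fell. DNMT3L rose by 3.52 (SE 0.73, adjusted p = 0.00796 in edgeR), from 0.05 ± 0.02 CPM (SD, n = 8) to 0.63 ± 0.59 CPM (SD, n = 9), which are low levels. In the average of both types DNMT3L (2.94, SE 0.59) was among the 7 called higher, again at low levels. Among the 9 called lower were KDM5C (-0.57, SE 0.12), E2F6 (-0.61, SE 0.13), L3MBTL2 (-0.78, SE 0.16) and DNMT3B (-0.66, SE 0.19). Blocked by conceptus, edgeR called 0 of these 28 in IVD tissue and 10 in the average, and of the genes named here for the average DNMT3B was lost (adjusted p = 0.0749).

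Other germline genes that are silent in most somatic tissue were mostly unmeasured, with 13 of 28 tested. EdgeR called 0 of the 13 in mono-culture (0 at an unadjusted p under 0.05, 0 by DESeq2) and 0 in co-culture (2 at an unadjusted p under 0.05, 0 by DESeq2) between IVP and IVD tissue. Over all 15942 genes, 2170 had an unadjusted p under 0.05 in co-culture in edgeR. In co-culture 10 of 13 had a negative log2 fold change, as did 8911 of the 15942. The median of the 13 was -0.33 against -0.06 over all genes, and this difference was not tested. Primordial germ cell markers were measured for 7 of 10 genes, and DAZL, DPPA3 and NANOS2 had no row. In mono-culture their summed level ran from 205 to 510 CPM for IVD and 209 to 372 for IVP tissue, and in co-culture from 125 to 516 for IVD and 104 to 510 for IVP tissue. These ranges overlapped, and their part in the PNLDC1 values was not tested.

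Over the 29 libraries, the genes most like PNLDC1 by Pearson's r of log2 CPM were CCDC17 (r = 0.74), LARP7 (0.74), PMM2 (0.72), SPDL1 (0.70), C1H3orf33 (0.70) and IDUA (0.70). LARP7 binds the 7SK small nuclear RNA, PMM2 makes mannose 1-phosphate for glycosylation, SPDL1 acts at the kinetochore, and IDUA is a lysosomal iduronidase. With group means removed, r was 0.48 for CCDC17, 0.68 for LARP7, 0.58 for PMM2, 0.68 for SPDL1, 0.54 for C1H3orf33 and 0.63 for IDUA. CCDC17 lost the most of these 6. The lowest were ATP6V0C (r = -0.77), ATP6V0D1 (-0.77) and UBE2G1 (-0.76), of which the first pair encode subunits of the proton pump that acidifies lysosomes and the third a ubiquitin-conjugating enzyme. With group means removed these were -0.51, -0.63 and -0.69. None of these 9 genes passed between IVP and IVD tissue in co-culture in edgeR. The libraries share conceptuses, so the correlations are descriptions.

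The tested genes on either side of PNLDC1 in the gene order of ARS-UCD2.0 were MRPL18, TCP1 and ACAT2 on one side and IGF2R, PLG and MAP3K4 on the other, and no annotated gene overlapped PNLDC1. IGF2R is the receptor that clears insulin-like growth factor 2 and is imprinted in cattle. Over the 29 libraries IGF2R had the highest correlation with PNLDC1 among them (r = 0.51), but not with group means removed (0.27). Its IVP minus IVD log2 fold change was -0.34 (SE 0.19) in mono-culture and -0.24 (SE 0.16) in co-culture, neither past the threshold in edgeR. For the others r was 0.31 (MRPL18), 0.27 (PLG), -0.05 (TCP1), -0.23 (ACAT2) and -0.40 (MAP3K4), and none passed in co-culture. With group means removed these were 0.52, 0.38, 0.26, 0.11 and -0.61, so MRPL18 and PLG were then above IGF2R.

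PNLDC1 was also measured in the 12 explants of endometrium from wells with IVP conceptus, in libraries of 24593699 to 84030248 counted reads. The level was 1.48 CPM at its lowest, 4.45 at the median and 8.95 at its highest (mean 4.25 ± 2.31, SD, n = 12). Explants of the same uterus were close in some uteri, at 1.48 and 1.69 CPM for uterus 17, 1.87 and 2.14 for uterus 39, 4.66 and 5.05 for uterus 69, and less so at 4.67 and 6.49 for uterus 14 and 4.25 and 6.53 for uterus 70. The same conceptuses (23 and 24) lay on uteri 14 and 39, and both explants of uterus 39 were below both of uterus 14. In 7 wells the conceptus section was sequenced as well, and in 6 of them the endometrial value was above that of the conceptus. The tissues were aligned, scaled and dated apart, so the levels are set side by side without a test. In endometrium PIWIL1, PIWIL2 and PLD6 each had no read in 8 of 12 libraries, HENMT1 was at 0.830 to 3.44 CPM and TDRKH at 0.536 to 17.4 CPM.

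**Figure D4:**
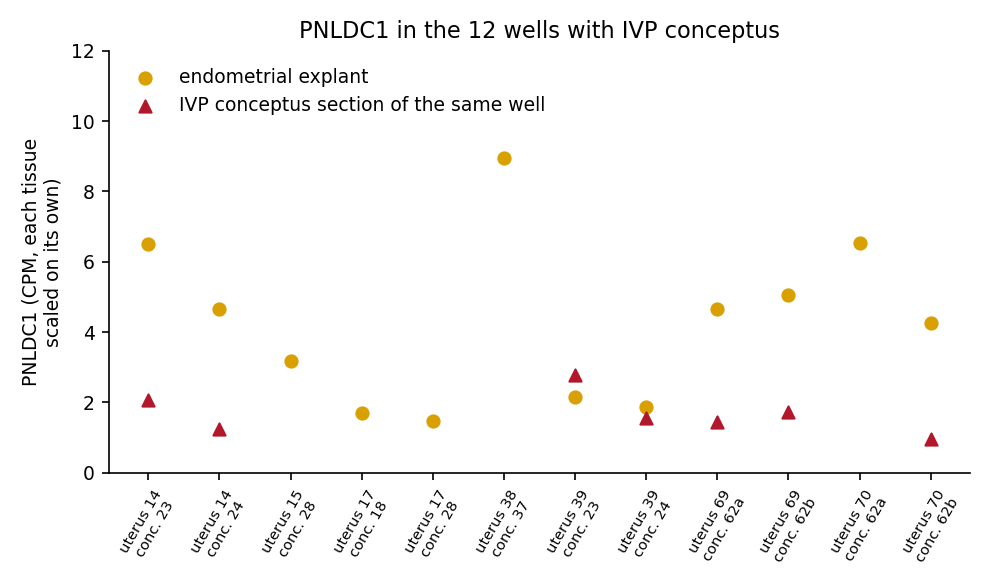
PNLDC1 level (CPM, each tissue scaled on its own, linear axis from 0) in the 12 endometrial explants cultured with IVP conceptus, ordered by uterus, with the conceptus section of the same well as a triangle where it was sequenced. The endometrial value is the higher in 6 of 7 wells with both tissues, the exception being conceptus 23 on uterus 39 (2.14 against 2.78 CPM).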

How the data were processed

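RNA-seq was used to count transcripts in 41 libraries. The authors trimmed reads with Trimmomatic, aligned conceptus reads with HISAT2 and endometrial reads with STAR to ARS-UCD1.2, and deposited raw counts per gene from featureCounts. Tool versions, the strand setting and the handling of multiply aligned reads are not given in the sources used here. Of the deposited tables, that of conceptus holds 16149 genes and that of endometrium holds 27270, with 1 row that names no gene and 28 columns that match no sample here, which were not used. Groups came from sample titles, which give 8 IVD and 5 IVP mono-culture libraries where the extraction protocol states 7 of each. For IVP co-culture replicate 1 the title was followed, although its treatment label reads as medium without endometrium. P-values over libraries treat sections of a conceptus as independent, which they are not.

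The main test was edgeR's quasi-likelihood test (edgeR 4.0.16, R 4.3.3) with TMM factors, 1 mean per group over 29 libraries and a Benjamini-Hochberg FDR of 0.05, on the 15942 genes that filterByExpr kept at a minimum count of 10 and a minimum total of 15. A prior count of 1 was set for log2 CPM. Within-conceptus differences were tested by exact sign-flip permutation. PNLDC1 and the gene lists were chosen with earlier results of these data known. Named genes were PNLDC1, its main partners and DNA methyltransferases, up to 4 called members per list with the smallest p, the 6 highest and 3 lowest correlations among genes with a mean log2 CPM of at least 0, and 3 neighbours on each side. GPAT2 and other listed piRNA pathway genes appear only in the plot, and TDRD1, POU5F1 and the markers were added for their role or values.

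Libraries of the same conceptus in both cultures were correlated after removal of group means in 16 of 16 pairs (median 0.588), and those of the same replicate number in 4 of 13 (median -0.317), so the conceptus was the block of the paired alternative. No library was a copy of another (over 95 pairs within groups, chi-square divided by its degrees of freedom was at least 119). On simulated counts for co-culture against mono-culture in IVD tissue over 15942 genes, 24 of 100 genes changed 2-fold and 77 of 100 changed 4-fold were recovered, with 2 false calls. The simulated libraries were drawn independently, without the shared conceptus of the real ones. These rates therefore do not cover that dependence. Alternatives were DESeq2 1.42.0, limma 3.58.1 (voom, conceptus as random block), RLE size factors, other filters, a factor of unwanted variation, blocks, counts summed per conceptus, and leaving out each library and conceptus. Library totals alone, the TMM factor as a covariate, and leaving out the mono-culture libraries of conceptuses 26 and 37 were chosen after seeing the data. Intervals of counts cover counting error only.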

Additional observations from a re-analysis of the deposited data

Results flagged for a closer look

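In IVD co-culture, PNLDC1 in conceptus 50 (replicate 5) was at 20.1 CPM, far from the next of the 9 libraries at 10.4 CPM. In the same conceptus the mono-culture section was at 7.35 CPM, within its group.

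POU5F1, a transcription factor of the epiblast, stood apart in 3 libraries. It was at 88.8 CPM in IVD mono-culture replicate 4 (conceptus 26), at 34.8 CPM in IVP mono-culture replicate 5 (conceptus 37) and at 41.2 CPM in IVD co-culture replicate 2 (conceptus 22). PNLDC1 was at 3.13, 4.20 and 7.90 CPM in these libraries. The first is the lowest and the second the highest of its group. In all, 34 groups were checked and 4 were flagged. The rule would flag about 1 in 20 groups by chance if the values were normally distributed. CPM was used on its linear scale, where that was not checked, so the chance rate here is not known.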

How the results depend on the processing

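The IVP minus IVD log2 fold change of PNLDC1 kept its sign under all 54 alternatives, from -1.59 to -1.01 in mono-culture and from -2.51 to -1.91 in co-culture. That contrast chose the gene, and the alternatives refit the same libraries, so the kept sign is no support for the difference. Co-culture minus mono-culture stayed within 0.23 to 0.73 in IVD tissue (adjusted p 0.153 to 0.641 in edgeR, limma and DESeq2) and -0.86 to -0.01 in IVP tissue (0.203 to 0.998), and never passed. With each library left out in turn the ranges were 0.23 to 0.62 and -0.67 to -0.18, and with each conceptus 0.31 to 0.65 and -0.63 to -0.18. The average over both types is near 0 and turned in 14 of 54 alternatives. It was -0.24 with library totals alone, 0.36 with the TMM factor as a covariate, -0.12 to 0.17 with libraries left out and -0.08 to 0.17 with conceptuses left out. The cause was not tested. The within-conceptus mean ran from 0.18 to 0.38 over both types, 0.40 to 0.69 in IVD and -0.34 to -0.02 in IVP with conceptuses left out, and r across IVD conceptuses from 0.437 to 0.694.

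With the conceptus as a block, the paired edgeR values were 0.56 (SE 0.23, adjusted p = 0.153) in IVD, -0.18 in IVP and 0.19 in the average. No paired value exists for IVP against IVD, since a conceptus is of 1 type. With the replicate number of the titles as a block, which marks a shared conceptus only for replicates 1 and 2 of IVP tissue, the values were 0.42, -0.36 and 0.03, and -1.44 and -2.22 for IVP minus IVD in mono-culture and co-culture. The average has no fit of the compared groups alone, since it uses all groups.

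Calls over the 4 lists together moved from 7 in IVD tissue to 1 with the conceptus block and 11 with DESeq2, from 0 in IVP tissue to 1 with counts summed per conceptus and 2 with DESeq2, and in the average from 20 to 13 with the block. Over all genes, calls between cultures in IVD tissue moved from 1009 to 206 with the block and 1941 with DESeq2, and in IVP tissue from 0 to 107 with summed counts and 321 with DESeq2. Calls between IVP and IVD tissue moved from 0 to 1 with DESeq2 in mono-culture and from 4 to 15 with summed counts and 152 with DESeq2 in co-culture.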
